A study of Mus musculus with 36 samples.

Results

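The genes described here are 10 interferon-induced antiviral effectors of the mouse: Mx1, Mx2, Rsad2, Cmpk2, Isg15, Isg20, Usp18, Bst2, Eif2ak2 and Ifi44. They were taken by symbol, 10 of the 54532 genes in a table of RNA-seq read counts. The rule used no measured value, but the genes were picked with earlier results of these data known. The cells were bone marrow-derived macrophages (BMDMs) from C57BL/6 mice, all adult females, grown for 7 days with MCSF, the growth factor that drives macrophage differentiation. Knockout (KO) cells had the genotype LysM-Cre;Bmal1 flox/flox, in which Cre recombinase is driven by the LysM promoter of myeloid cells and cuts the floxed Bmal1 gene that encodes the clock transcription factor BMAL1. Wild-type (WT) cells were Bmal1 flox/flox without Cre, so both genotypes carried the floxed alleles. Each genotype was treated for 6 h with DMSO vehicle, with 100 µM CCM (Core Circadian Modulator, a small molecule that binds the PASB domain of BMAL1), with 100 nM lipopolysaccharide (LPS, a bacterial cell wall component sensed by the receptor TLR4) or with LPS+CCM. There were 3 WT and 6 KO libraries of each of the 4 treatments, 36 in all. The study counts its replicates as mice, but the labels do not tie a replicate number to an animal, so p-values measure the spread between these libraries.

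In macrophages, LPS signals from TLR4 through the adaptor TRIF to the factor IRF3, which starts the Ifnb1 gene. Secreted interferon beta binds IFNAR1 and IFNAR2, the kinases JAK1 and TYK2 phosphorylate STAT factors, and these enter the nucleus with IRF9 to bind the interferon-stimulated response element of target genes. The effectors act at different steps of a viral life cycle. Mx1 and Mx2 encode dynamin-like GTPases that trap viral nucleocapsids, although the Mx1 allele of C57BL/6 and most inbred strains gives no functional protein and Mx2 is annotated as a polymorphic pseudogene. Rsad2 (viperin) converts CTP to a chain terminator of viral RNA synthesis, and its neighbour Cmpk2 is a mitochondrial nucleotide kinase that supplies CTP. Isg15 is a ubiquitin-like protein joined to other proteins, and Usp18 removes it and also dampens the interferon receptor. Bst2 (tetherin) holds budding virions at the cell surface, Eif2ak2 (PKR) is a kinase that stops translation on sensing double-stranded RNA, Isg20 is an RNA exonuclease, and Ifi44 is a cytoplasmic protein whose action is less well defined.

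The response element can be searched for as the letters GAAA, any 2 bases, and GAAA again, on either strand and counting overlapping matches. Of the 32851 RefSeq promoter windows of 300 bases (250 before and 50 after a gene's start, build GRCm38.p6), 1131 or 3.44% held it. Windows were matched for 7 of the 10 genes, and those of Mx1, Mx2 and Usp18 were not used here. The element was found in 4 of the 7, Isg15, Bst2, Rsad2 and Eif2ak2, whose stretches are printed 5′ to 3′ on the gene's strand because they show how the copies are stacked. Capitals mark the GAAA units, or TTTC where the match is on the opposite strand.
Isg15, chr4:156200840-156200931, minus strand: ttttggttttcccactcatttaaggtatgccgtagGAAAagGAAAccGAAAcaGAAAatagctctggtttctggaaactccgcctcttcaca
Bst2, chr8:71537552-71537637, minus strand: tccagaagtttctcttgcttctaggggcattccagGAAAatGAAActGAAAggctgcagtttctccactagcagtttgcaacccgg
Rsad2, chr12:26456528-26456607, minus strand: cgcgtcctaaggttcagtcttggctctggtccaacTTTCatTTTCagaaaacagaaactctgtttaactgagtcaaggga
Eif2ak2, chr17:78882523-78882589, minus strand: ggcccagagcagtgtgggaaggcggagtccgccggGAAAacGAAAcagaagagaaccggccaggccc
The Isg15 window held 3 overlapping matches, with first bases at -78, -72 and -66 from the start, and Bst2 held 2, at -130 and -124. Rsad2 held 1 at -120 and Eif2ak2 held 1 at 18, inside the transcript. The windows of Cmpk2, Ifi44 and Isg20 (3 windows) did not hold these letters. By the same search, 5 of 6 IFIT genes, 5 of 5 guanylate-binding protein genes and 0 of 11 inflammatory LPS targets with a window held the element. So did 4 of 12 other interferon-induced effectors, 2 of 9 STAT, IRF and SOCS genes and 0 of 4 ISG15 conjugation enzymes. The counts were 3 of 8 for interferon ligands, receptors and kinases and 2 of 6 for the TRIF branch and cytosolic sensors.

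On GRCm38, Rsad2 (chr12:26442746-26456452, minus strand) and Cmpk2 (chr12:26469204-26479837, plus strand) lie head to head with 12752 bases between their starts. Mx1 (chr16:97447035-97462907, minus strand) and Mx2 (chr16:97535308-97560900, plus strand) also diverge, with 72401 bases between starts. The other genes lie apart, Isg15 at chr4:156199424-156200818, Bst2 at chr8:71534255-71537456, Usp18 at chr6:121245906-121270917, Ifi44 at chr3:151730922-151749960, Eif2ak2 at chr17:78852564-78882573 and Isg20 at chr7:78913424-78920396. No annotated gene overlapped 8 of the 10. Usp18 overlaps the long noncoding gene Gm44148 on the other strand, which had 41 counts over all libraries, and Eif2ak2 overlaps Gm26637 and n-R5s29 with 1926 and 94 counts. Whether reads were counted by strand is not given in the sources used here, so reads in these overlaps cannot be assigned with certainty.

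Libraries held 13469262 to 28288923 counts on genes (median 19951421). Members had at least 7 counts in every library without LPS and at least 1527 in every library with it, up to 88715. The gene targeted in KO cells, Bmal1 (listed as Arntl), stood at 7.52 to 12.9 CPM (counts scaled to the effective library size) in WT and 2.02 to 10.8 CPM in KO libraries, ranges that overlap, and its difference was not called (log2 fold change in vehicle -0.34 ± 0.26 SE, adjusted p = 1 by edgeR). Counts of the whole gene do not resolve the floxed exon, so they check the labels only in part, and groups are named here as labelled. The 6 macrophage markers summed to 2909 to 6103 CPM. The neutrophil list summed to 425 to 1151 CPM and the fibroblast list to 302 to 1660 CPM, and the B cell, T cell, erythroid and 2 dendritic cell lists to at most 14.1 CPM. KO replicate 6 stood apart in all 4 treatments. Its log2 CPM fell by 0.44 to 0.52 per doubling of gene length against the median of the same treatment over 11179 genes, KO LPS+CCM replicate 5 by 0.30 and KO LPS+CCM replicate 2 by 0.16, while the slope in the other 30 libraries lay between -0.07 and 0.05. The neutrophil list had a median of 920 CPM (569 to 1148) in KO vehicle libraries and of 662 CPM (659 to 723) in WT vehicle libraries, a difference that was not tested. In KO replicate 6 the neutrophil list summed to 1111 to 1151 CPM, the macrophage markers to 2909 to 4318 CPM and the fibroblast list to 314 to 602 CPM. The members' medians in comparisons of KO cells are therefore also given without KO replicate 6.

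Resting macrophages carried little RNA of most members. On the RPKM scale (CPM divided by the exon length in kilobases, a level per length that allows genes to be compared), Bst2 was the highest in WT vehicle cells at 106 ± 11.1 (SD, n = 3), followed by Isg15 at 9.29 ± 1.71 and Eif2ak2 at 5.68 ± 0.82. Rsad2 stood at 2.15 ± 0.19 and Cmpk2 at 1.78 ± 0.18 RPKM. Usp18, Mx1, Isg20 and Mx2 followed between 1.01 and 0.61 RPKM, and each overlapped its neighbour in this order. Ifi44 was the lowest at 0.27 ± 0.01 RPKM.

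LPS raised all 10 members in WT cells. The largest rises were in Mx1, Rsad2 and Cmpk2, 349- to 382-fold, and the smallest in Bst2 and Eif2ak2. Mx1 stood at 2.999, 4.57 and 3.05 CPM in the 3 WT vehicle libraries and at 1452, 1201 and 1259 CPM in the 3 WT LPS libraries. Rsad2 stood at 8.50, 10.2 and 9.34 CPM with vehicle and at 3491, 3257 and 3571 CPM with LPS. Every LPS library lay far above every vehicle library for both genes. The rises on the log2 scale were 8.58 ± 0.16 (SE) for Mx1 and 8.56 ± 0.10 for Rsad2, with adjusted p = 5.48e-11 and 9.44e-12 in edgeR's quasi-likelihood test. The other nucleotide enzyme, Cmpk2, rose by 8.45 ± 0.10, from 7.40 ± 0.75 to 2517 ± 126 CPM (mean ± SD, n = 3).

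The ISG15 system rose as well. Isg15 went from 7.02 ± 1.29 to 1409 ± 81.1 CPM (log2 fold change 7.69 ± 0.13, edgeR adjusted p = 3.41e-11) and its protease Usp18 from 2.82 ± 0.40 to 480 ± 31.1 CPM (7.45 ± 0.11). Ifi44 rose by 7.65 ± 0.09, Isg20 by 6.74 ± 0.13 and Mx2 by 6.49 ± 0.19 on the same scale. Bst2 rose from 95.6 ± 9.99 to 785 ± 47.9 CPM (3.07 ± 0.08) and Eif2ak2 from 29.0 ± 4.21 to 224 ± 10.5 CPM (2.98 ± 0.10). All 10 were called higher, against 30.6% of the 14501 genes tested, and the ranges of the groups did not overlap for any of the 10, against 31.7% of genes that were higher with no overlap. The median log2 fold change was 7.55 over members and -0.05 over all genes tested. Scaling by total counts alone moved the latter to -0.47 and the share of called genes that were higher from 48.6 to 24.0%, and the members' median stood 7.60 above that of all genes under the main scaling and 7.61 above it by total counts.

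After LPS the order of the levels per length in WT cells was Isg15 (1863 ± 107 RPKM), Bst2 (869 ± 53.0), Rsad2 (793 ± 37.6), Cmpk2 (605 ± 30.3), Mx1 (345 ± 34.7), Usp18 (172 ± 11.1), Isg20 (81.8 ± 2.16), Mx2 (53.0 ± 5.50), Ifi44 (52.8 ± 3.19) and Eif2ak2 (43.9 ± 2.05). The neighbours Bst2 and Rsad2 overlapped, as did Mx2 and Ifi44, and the other neighbours did not.

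In KO cells LPS also raised all 10 members, against 22.4% of the 13648 genes tested, and again the groups did not overlap for any member, against 15.3% of genes. The log2 fold changes ran from 2.99 ± 0.19 for Eif2ak2 to 7.93 ± 0.44 for Rsad2, with a median of 7.24 (7.23 without KO replicate 6, and -0.05 over all genes tested). By total counts alone the median of all genes was -0.44 and the share of called genes that were higher went from 47.6 to 24.2%, with 10 members still called. Mx1 stood at 1.47 CPM at the lowest, 3.71 at the median and 11.7 at the highest of the 6 KO vehicle libraries, and at 696, 1112 and 1467 CPM with LPS. Rsad2 ran from 6.12 through 10.2 to 31.1 CPM with vehicle and from 2413 through 3184 to 4047 CPM with LPS. The highest vehicle value of both genes was in KO replicate 2.

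**Figure D1:**
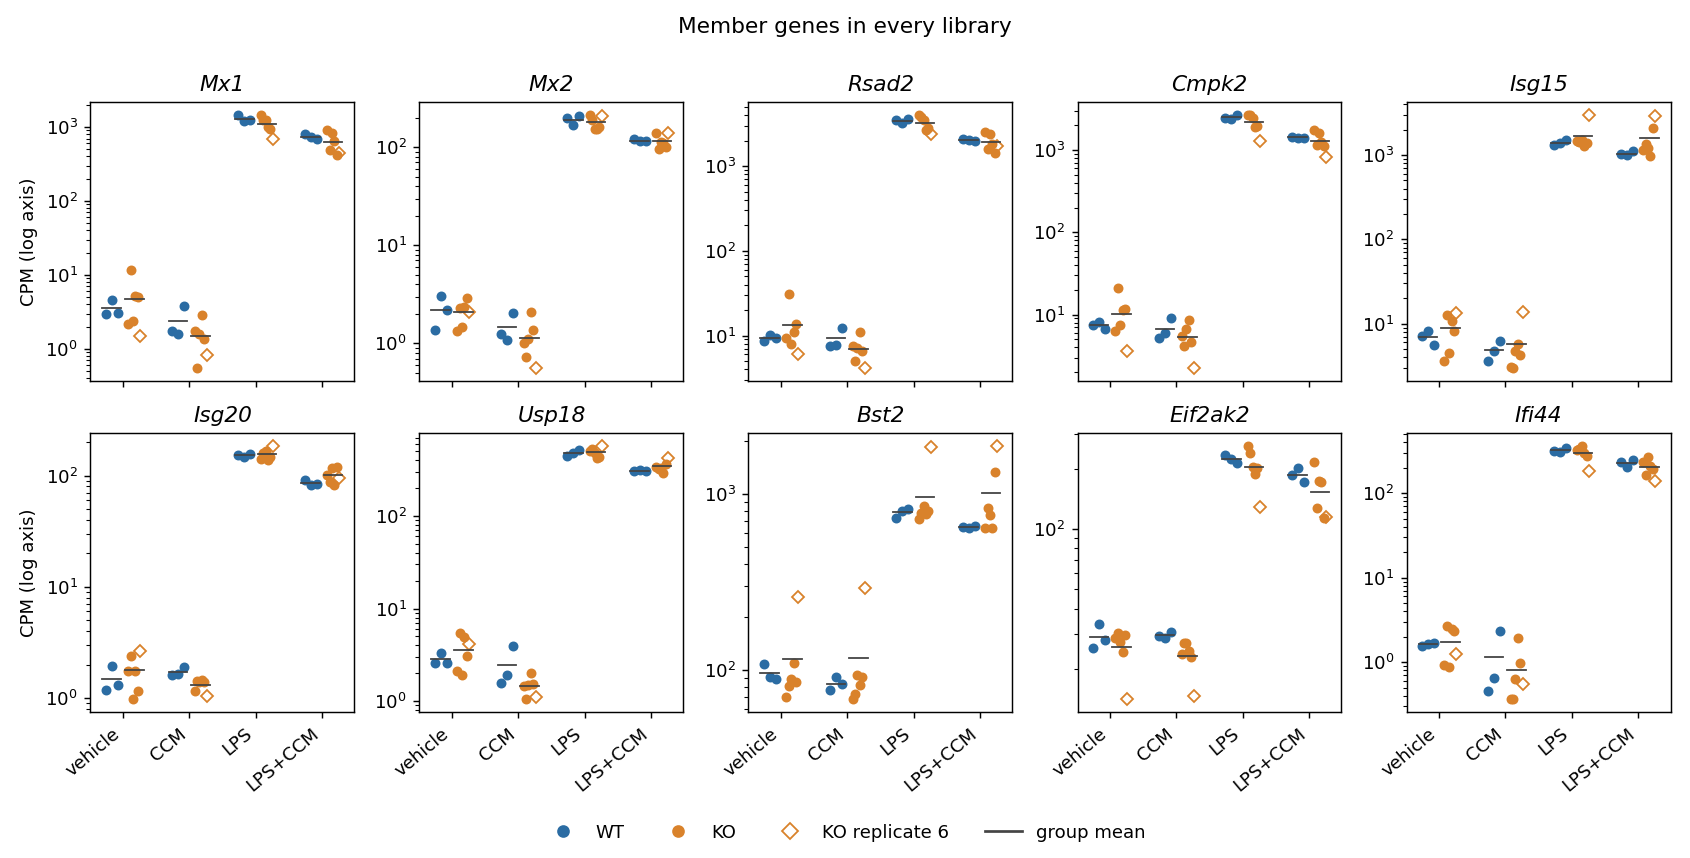
CPM of each member (log axis, a separate range in each panel) in the 36 libraries by treatment, with WT libraries in blue, KO libraries in orange, KO replicate 6 as open diamonds and group means as bars. Every LPS library lies above every library without LPS, and KO replicate 6 is the highest KO library for Bst2 in each treatment and the lowest for Cmpk2.

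Upstream of the members, the ligand gene Ifnb1 had 0 counts in all 6 WT libraries without LPS and 33, 30 and 42 counts in the 3 WT LPS libraries (1.95, 1.30 and 1.69 CPM). Against a floor of 3 counts over the 3 vehicle libraries this was at least 44.9-fold higher. Of the 5 tested genes of the ligand, receptor and kinase list, 5 were called higher with LPS in WT cells, among them Tyk2 (log2 fold change 1.44 ± 0.06) and Ifnar2 (1.12 ± 0.05). Of the 10 STAT, IRF and SOCS genes, 8 were called higher and 0 lower, led by Irf7, the factor that amplifies the interferon loop (6.15 ± 0.10). Of the 10 genes of the TRIF branch and the cytosolic sensors, 8 were higher, among them the nucleic acid sensors Zbp1 (6.62 ± 0.09) and Ifih1 (5.01 ± 0.08), and 1 was lower, the adaptor Mavs (-0.30 ± 0.06). All 4 ISG15 conjugation enzymes rose, with Herc6, the ligase, at 4.57 ± 0.08 and Uba7, the activating enzyme, at 2.99 ± 0.06.

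Among related effector families, all 6 IFIT genes, translation inhibitors that bind viral RNA, were called higher with a median of 7.54, and all 11 guanylate-binding proteins with a median of 7.37. Ifit1 rose by 8.29 ± 0.11 and Gbp2 by 8.15 ± 0.09. Of 14 tested other interferon-induced effectors, 13 were higher (Oasl1 by 8.30 ± 0.13). In KO cells the counts of higher genes were 6 of 6, 10 of 10 and 13 of 14.

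CCM given with LPS lowered all 10 members in WT cells. Isg20, Mx1, Cmpk2, Rsad2 and Mx2 fell the most, to between 56.5 and 61.6% of their level with LPS alone, Usp18, Ifi44 and Isg15 fell less, and Bst2 and Eif2ak2 fell the least. In these bulk samples, fewer expressing cells and less RNA per cell cannot be told apart. Cmpk2 stood at 2466, 2425 and 2661 CPM with LPS and at 1447, 1426 and 1409 CPM with LPS+CCM. Isg20 stood at 154, 148 and 155 CPM with LPS and at 90.4, 81.6 and 84.7 CPM with LPS+CCM. For these genes the highest LPS+CCM library was well below the lowest LPS library, and the ranges of the groups did not overlap for any of the 10 members, against 15.8% of genes that were lower with no overlap.

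The log2 fold changes were -0.82 ± 0.05 for Isg20, -0.81 ± 0.05 for Cmpk2, -0.81 ± 0.08 for Mx1, -0.73 ± 0.05 for Rsad2 and -0.70 ± 0.07 for Mx2, with edgeR adjusted p between 1.4e-05 and 0.000217. Usp18 fell by 0.64 ± 0.05, Ifi44 by 0.50 ± 0.07 and Isg15 by 0.43 ± 0.06. Bst2 stood at 731, 802 and 822 CPM with LPS and at 650, 640 and 658 CPM with LPS+CCM (-0.27 ± 0.05, edgeR adjusted p = 0.00609). Eif2ak2 stood at 235, 224 and 214 CPM with LPS and at 185, 202 and 171 CPM with LPS+CCM (-0.26 ± 0.06, edgeR adjusted p = 0.0252). Eif2ak2 lost its call by total counts alone, in the fit of all 36 libraries and without WT LPS replicate 1 or 2 or WT LPS+CCM replicate 1 or 3.

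All 10 members were called lower, against 7.78% of the 13579 genes tested, and their median log2 fold change was -0.67 (0.01 over all genes tested). Scaling by total counts alone turned the split of called genes from 564 higher and 1057 lower to 1539 higher and 733 lower, and left the 10 members between -0.74 and -0.18, with 9 called. In a fit of all 36 libraries, which takes its spread from the KO groups too, 0 of 10 members and 17 genes in all were called, with the lowest adjusted p of a member at 0.122 for Isg20. With the replicate number as a block all genes called rose from 1621 to 3220.

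**Figure D2:**
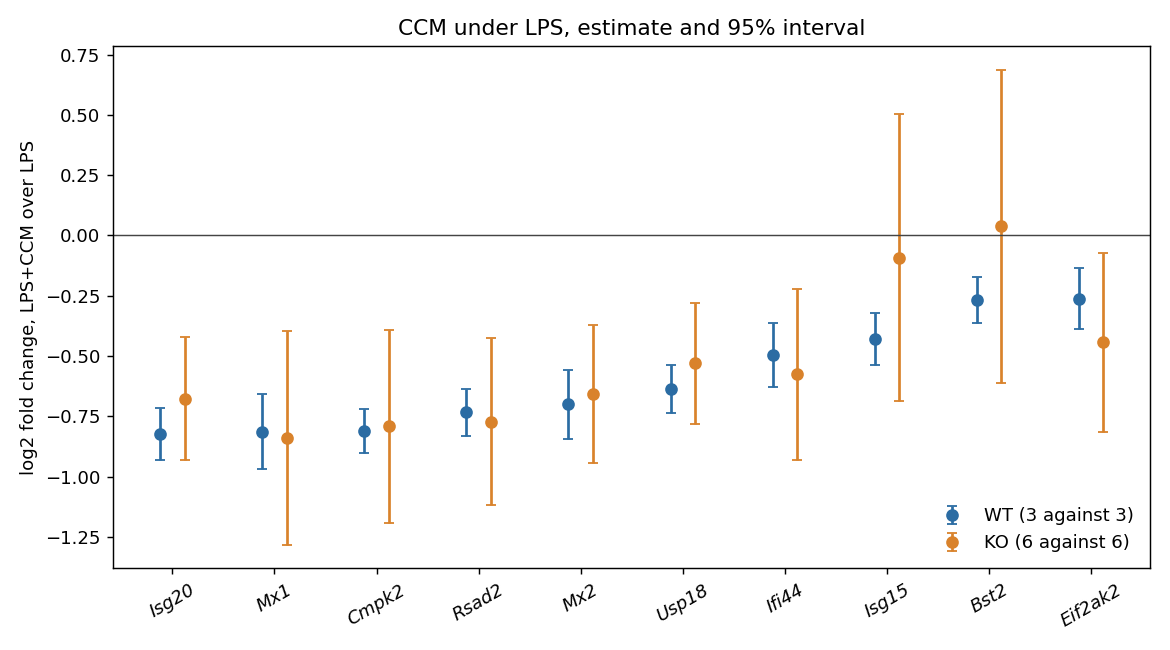
Log2 fold change of each member for LPS+CCM over LPS, with 95% intervals, in WT (blue, 3 against 3 libraries) and KO cells (orange, 6 against 6), ordered by the WT value. In WT every interval lies below 0, from -0.82 for Isg20 to -0.26 for Eif2ak2, and in KO the intervals are wider and those of Isg15 and Bst2 include 0.

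In CPM, the part of the LPS rise that was present in LPS+CCM cells (LPS+CCM minus vehicle, over LPS minus vehicle, taken per replicate number) was 55.8 ± 2.36% for Isg20, 56.6 ± 3.15% for Mx1, 56.7 ± 3.34% for Cmpk2 and 59.8 ± 3.72% for Rsad2 in WT cells (SD, n = 3). Isg15 kept 73.8 ± 3.38%, Eif2ak2 80.5 ± 6.78% and Bst2 80.6 ± 5.56%. The median over the members was 62.7 ± 4.59%. In KO cells the median over the members was 66.4 ± 8.92% (n = 6), with 56.8 ± 12.4% for Mx1 and 60.2 ± 11.9% for Rsad2. For Isg15 and Bst2 the KO values spread from 76.7 to 152% and from 80.0 to 175%, and the highest of both was KO replicate 5. No test was made, since numerator and denominator share the vehicle libraries.

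**Figure D3:**
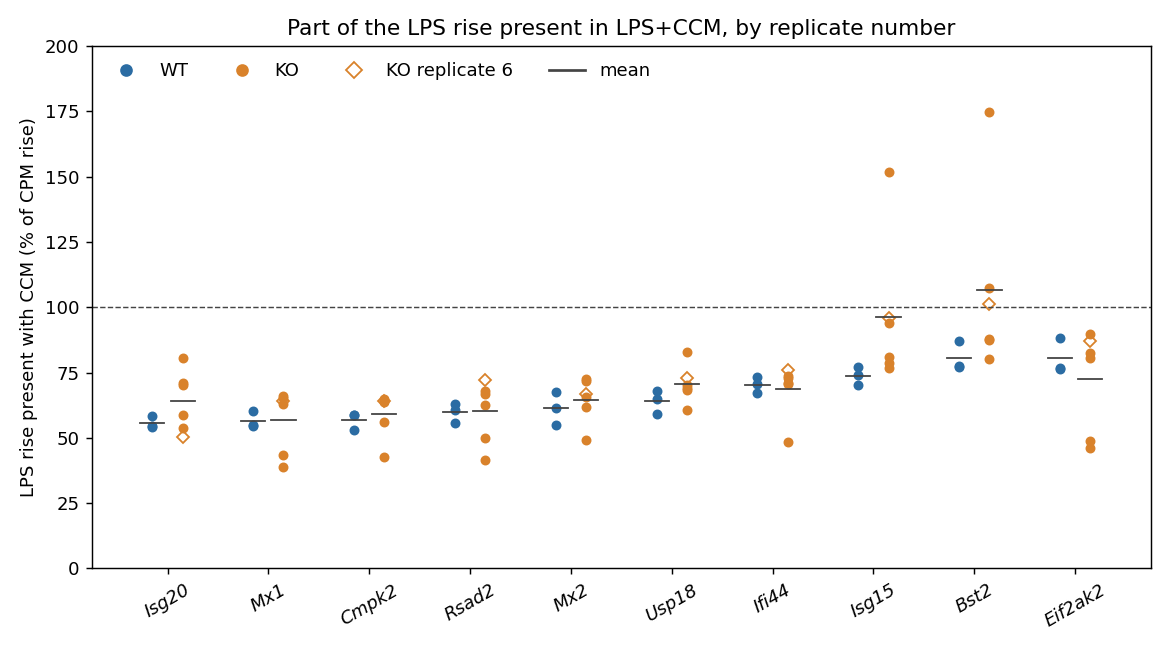
Part of the LPS rise in CPM that was present with CCM, in percent, for each replicate number in WT (blue) and KO (orange, replicate 6 as open diamonds), with means as bars and 100% as a dashed line. WT values lie between 52.8 and 88.3%, and values above 100% occur for Isg15 and Bst2 in KO cells.

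The genes around the members moved with CCM under LPS in WT cells as follows. Ifnb1 had 33, 30 and 42 counts with LPS and 8, 7 and 5 with LPS+CCM, so the groups did not overlap, and its log2 fold change was -2.14 ± 0.35 (edgeR adjusted p = 0.00322). In its list 2 of 5 tested genes were lower and 0 higher, the other being the kinase Tyk2 (-0.32 ± 0.07). Of the 10 STAT, IRF and SOCS genes 4 were lower and 0 higher, with Irf1 at -0.82 ± 0.10 and Irf7 at -0.45 ± 0.05. Of the 10 TRIF branch and sensor genes 5 were lower, with Ifih1 at -0.73 ± 0.05 and Dhx58 at -0.42 ± 0.04, and 1, Mavs, was higher (0.35 ± 0.07).

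All 4 ISG15 conjugation enzymes were lower, with Ube2l6 at -0.44 ± 0.04 and Uba7 at -0.37 ± 0.04. All 6 IFIT genes were lower with a median of -0.72, among them Ifit3b (-0.87 ± 0.05) and Ifit2 (-0.76 ± 0.05). Of the 11 guanylate-binding proteins 9 were lower and 0 higher, with Gbp5 at -0.77 ± 0.05. Of 14 tested other effectors 11 were lower, with Xaf1 at -0.47 ± 0.04. The inflammatory LPS targets, which are driven mainly by NF-kB, had 11 of 12 genes lower and a median of -0.63, close to the members' -0.67, with the prostaglandin synthase gene Ptgs2 at -1.32 ± 0.10 and the chemokine gene Ccl4 at -0.58 ± 0.05.

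**Figure D4:**
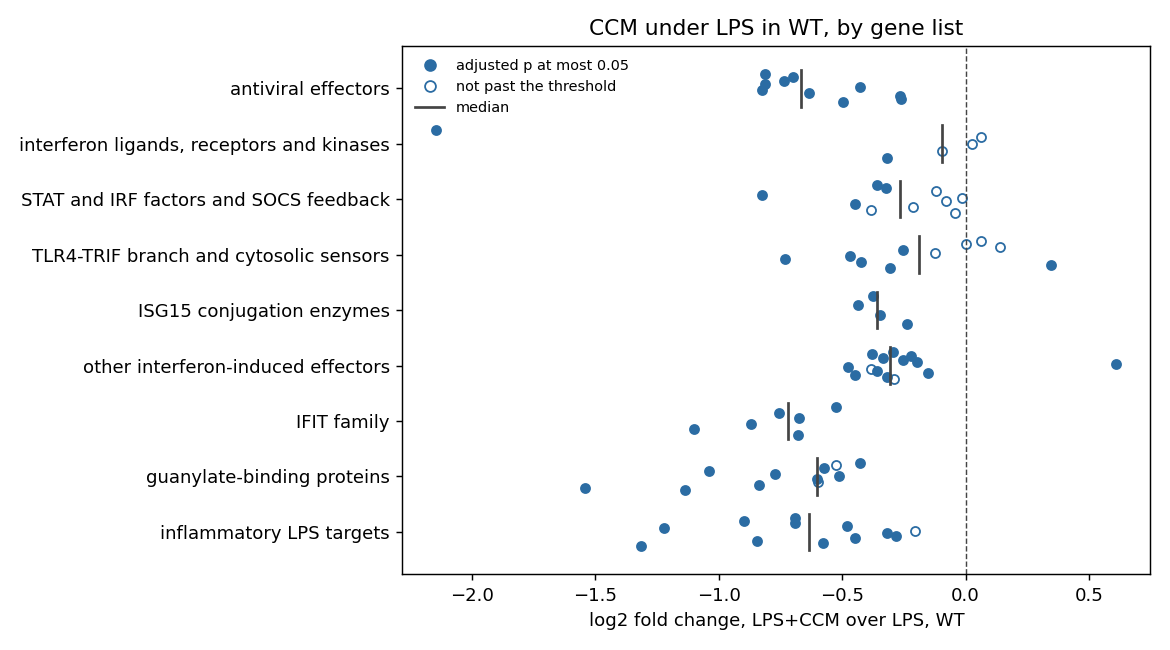
Log2 fold change for LPS+CCM over LPS in WT cells of each gene (points) in the antiviral effectors and 8 related lists, filled where the edgeR adjusted p was at most 0.05, with list medians as bars. The medians of the antiviral effectors, the IFIT family, the guanylate-binding proteins and the inflammatory targets lie between -0.72 and -0.60, and the single point at -2.14 is Ifnb1.

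In KO cells with LPS, CCM gave negative estimates for 9 members, 8 of them between -0.84 and -0.44, but none was called in edgeR's main test. Mx1 ran from 696 through 1112 to 1467 CPM with LPS and from 416 through 568 to 926 CPM with LPS+CCM. Usp18 ran from 417 through 487 to 570 CPM with LPS and from 290 through 337 to 418 CPM with LPS+CCM. For both genes the ranges of the groups overlapped, and the LPS+CCM median lay below the lowest LPS library. Isg20 ran from 139 through 154 to 185 CPM with LPS and from 82.3 through 98.1 to 119 CPM with LPS+CCM. It and Mx2 were the 2 members whose groups did not overlap, against 0.672% of genes that were lower with no overlap.

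The log2 fold changes were -0.84 ± 0.23 for Mx1, -0.79 ± 0.20 for Cmpk2, -0.77 ± 0.18 for Rsad2, -0.68 ± 0.13 for Isg20 and -0.66 ± 0.15 for Mx2, with edgeR adjusted p between 0.0679 and 0.21. Ifi44 stood at -0.58 ± 0.18, Usp18 at -0.53 ± 0.13 and Eif2ak2 at -0.44 ± 0.19. Of the 10 members 0 were called, against 0.105% of the 13386 genes tested called lower, while 8 had an unadjusted p under 0.05, as had 1070 genes in all (7.99%). DESeq2 called 6 lower, against 0.502% of the 26918 genes to which it gave a p-value. That number includes low-count genes left out by the filter of edgeR and voom, so the share is not comparable with theirs. Voom with quality weights called 7, against 3.71%. The median over members was -0.62 (-0.58 without KO replicate 6, and 0.00 over all genes tested). Ifnb1 stood at 0.98 CPM at the lowest, 1.47 at the median and 3.24 at the highest of the LPS libraries and at 0.34, 0.76 and 1.22 CPM with LPS+CCM, and was not called (-1.26 ± 0.37, edgeR adjusted p = 0.271).

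The estimates of Isg15 and Bst2, the shortest members, lay near 0 in KO cells, with wide errors, and whether they differed from those of the other members was not tested. Isg15 stood at 1282 CPM at the lowest, 1448 at the median and 3006 at the highest with LPS, and at 985, 1283 and 2884 CPM with LPS+CCM (log2 fold change -0.09 ± 0.30). Bst2 stood at 720, 792 and 1859 CPM with LPS and at 637, 799 and 1880 CPM with LPS+CCM (0.04 ± 0.33). KO replicate 6 held the highest value of both genes in both groups, and KO LPS+CCM replicate 5 the next with LPS+CCM (2077 CPM of Isg15 and 1333 CPM of Bst2). These are the libraries with the steepest length slopes. Averaged over the 4 treatments, log2 CPM in KO replicate 6 minus the mean of KO replicates 1 to 5 was 1.22 for Isg15 (756 bases of exon) and 1.48 for Bst2 (903 bases), but -1.10 for Cmpk2 (4163 bases), -0.87 for Mx1 (3785 bases), -0.74 for Eif2ak2 (5113 bases) and -0.61 for Rsad2 (4335 bases). Length did not order the values strictly, since Mx2 (3614 bases) stood at -0.08 and the longest gene, Ifi44 (6129 bases), at -0.53, with Isg20 and Usp18 at 0.15 each.

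Leaving out KO replicate 6, 5 members were called lower under LPS (Isg20, Mx2, Rsad2, Cmpk2 and Usp18), against 0.953% of genes, with Usp18 at -0.52 (edgeR adjusted p = 0.0221), while Isg15 stood at -0.07 and Bst2 at 0.09. With voom quality weights over all libraries, Isg15 stood at -0.34 ± 0.11 (adjusted p = 0.0821) and Bst2 at -0.20 ± 0.11 (adjusted p = 0.371), so both estimates depended on how the libraries were weighted. With an offset for gene length in each library, an alternative chosen after seeing the data, 4 members were called lower (Mx2, Rsad2, Usp18 and Ifi44), against 0.769% of genes. All genes then split into 43 higher and 103 lower calls in place of 1 and 14. With this offset the estimate of Bst2 was 0.03, the highest of the members, against 0.04 in the main fit. The part of the gene length trend in these results was not tested beyond these values.

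**Figure D5:**
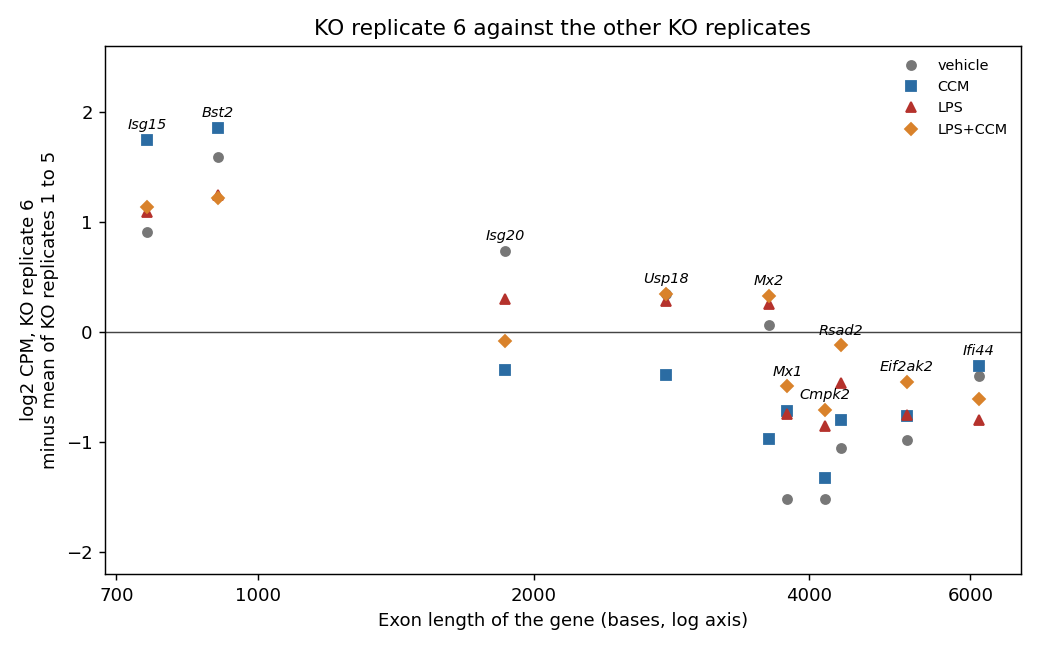
Log2 CPM in KO replicate 6 minus the mean of KO replicates 1 to 5 for each member and treatment (symbols), against the gene's exon length in bases (log axis). Isg15 and Bst2, the shortest, lie above 0 in all 4 treatments, and Mx1, Rsad2, Cmpk2, Eif2ak2 and Ifi44 lie below 0 in all 4.

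Whether CCM under LPS acted differently in the genotypes was tested as an interaction. No member was called, against 0% of the 14546 genes tested (72 genes and 0 members had an unadjusted p under 0.05, and DESeq2 called 0 members). For Rsad2 the KO minus WT difference in log2 fold change was -0.02, with a 95% interval from -0.52 to 0.48, and for Mx1 -0.01, from -0.67 to 0.65. The narrowest interval was that of Usp18, from -0.25 to 0.49, and the widest that of Bst2, from -0.66 to 1.30.

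Without LPS, CCM changed no member past the threshold in WT cells, against 0.057% of the 14024 genes tested. In edgeR 1 member had an unadjusted p under 0.05, as had 10% of genes, and DESeq2 called 0 members. Mx1 stood at 2.999, 4.57 and 3.05 CPM with vehicle and at 1.75, 1.58 and 3.77 CPM with CCM (log2 fold change -0.55, 95% interval -1.24 to 0.14). Isg15 stood at 7.21, 8.20 and 5.65 CPM with vehicle and at 3.59, 4.80 and 6.27 CPM with CCM (-0.50, -0.95 to -0.06 on a normal quantile, edgeR adjusted p = 0.509). The groups overlapped for each member, and the median was -0.17 (-0.01 over all genes tested). Rsad2 gave 0.00, with an interval from -0.39 to 0.39.

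In KO cells without LPS, 9 of the 10 members had lower estimates with CCM and the median was -0.90 (-0.97 without KO replicate 6, and 0.01 over all genes tested), but none was called, against 0% of the 13799 genes (6 members had an unadjusted p under 0.05, as had 2.41% of genes). Usp18 ran from 1.90 through 3.59 to 5.44 CPM with vehicle and from 1.05 through 1.48 to 2.03 CPM with CCM (-1.31 ± 0.29, edgeR adjusted p = 0.605). Mx1 ran from 1.47 through 3.71 to 11.7 CPM with vehicle and from 0.55 through 1.47 to 2.87 CPM with CCM (-1.65 ± 0.52). With the replicate number as a block, for which the libraries of this comparison met the pairing criterion, Usp18 was called (-1.23, edgeR adjusted p = 0.0222), 1 of 10 members against 1.7% of genes called lower. DESeq2 also called 1, Usp18 (adjusted p = 0.0149), against 0.0627% of genes called lower. That share is over all genes with a DESeq2 p-value, low-count genes included. KO vehicle replicate 2 held the highest vehicle value of Mx1, Rsad2, Cmpk2, Ifi44 and Usp18, and without KO replicate 2 the median moved to -0.48.

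The CCM effect with LPS was set against that without LPS as an interaction within each genotype. In WT, 1 of 10 members was called, Isg20, against 1.62% of the 14747 genes tested called negative. Isg20 stood at 1.18, 1.95 and 1.31 CPM with vehicle and at 1.61, 1.63 and 1.89 CPM with CCM alone, and fell from 152 ± 4.02 to 85.6 ± 4.48 CPM under LPS. The interaction was -1.09 ± 0.19 on the log2 scale (edgeR adjusted p = 0.0109). Rsad2 (-0.76 ± 0.19, adjusted p = 0.0539) and Cmpk2 (-0.72 ± 0.19, adjusted p = 0.0681) followed, and Isg15 (0.04 ± 0.20) and Ifi44 (-0.06 ± 0.43) lay near 0. Isg20 lost its call with voom with quality weights and in the fit of all 36 libraries. The interaction across all genes split into 69 positive and 239 negative calls, and into 230 and 117 when scaled by total counts alone, which moved the median of all genes from 0.02 to 0.11. In KO, no member was called, against 0.00685% of the 14588 genes tested. In edgeR 1 member, Usp18 at 0.80 ± 0.29, had an unadjusted p under 0.05, as had 3.67% of genes. DESeq2 called 0 members.

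Between the genotypes no member was called in vehicle cells, against 0% of 14385 genes tested, or with LPS, against 0% of 13794 (0 members in either had an unadjusted p under 0.05, DESeq2 called 0 members in both, and 118 and 105 genes had an unadjusted p under 0.05). Nor was any member called in the genotype by LPS interaction, against 0% of 15093 genes, of which 112 had an unadjusted p under 0.05 (0 members, and 0 by DESeq2). With LPS the KO minus WT log2 fold changes ran from -0.23 for Mx1, with an interval from -0.61 to 0.15, to 0.33 for Bst2, from -0.28 to 0.95. Without KO replicate 6 the values of Bst2 and Isg15 were 0.01 and 0.01, in place of 0.33 and 0.28. Those of Usp18 (0.05, from -0.19 to 0.29) and Isg20 (0.07, from -0.17 to 0.30) had the narrowest intervals. In vehicle cells the intervals were wider, for Rsad2 from -0.35 to 1.42 and for Mx1 from -0.68 to 1.57. The members' median was 0.36 in vehicle cells and -0.07 with LPS, and 0.01 and 0.00 over all genes tested. Both medians depended on the libraries used, at 0.20 and -0.02 without KO replicate 6 and at 0.04 and 0.06 with a replicate block. Replicate numbers 4 to 6 exist only in KO, so that block in effect compared replicates 1 to 3 of each genotype.

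Within groups the members varied together in part. The correlation of deviations of log2 CPM from the group means, over the 36 libraries, had a median of 0.34 over the 45 pairs of members and ranged from -0.89 to 0.94. It had a median of 0.59 among the 8 members other than Isg15 and Bst2, and of -0.09 between these 2 and the 8. Leaving out KO replicate 6 the medians were 0.66 and 0.18 over 32 libraries. The second of these pools 2 unlike genes. Over these 32 libraries Isg15 correlated at -0.27 with Eif2ak2, but with the rest of the 8 at 0.48 (Rsad2) to 0.81 (Usp18). Bst2 ran from -0.72 with Eif2ak2 to 0.22 with Usp18. With KO replicate 6 kept, the medians among the 8 and between the 2 and the 8 were 0.23 and -0.66 in the 18 libraries with LPS. In the 18 without LPS they were 0.62 and 0.01. These points share libraries, their depth and their length trend.

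Over the 36 libraries the genes whose log2 CPM was most like the members' mean scaled profile were Zbp1, Ifi47, Ifit1, Phf11d and Gbp6, with Pearson correlations of 0.998, 0.998, 0.998, 0.998 and 0.997 among 11169 other genes ranked. All libraries with LPS share high values, which sets most of these correlations. Among the members, Usp18 was the most like the mean of the other 9 (0.998), and Bst2 (0.933) and Eif2ak2 (0.971) were the least. Ifi47, an interferon-induced GTPase, stood at 14.4 ± 1.80 CPM in WT vehicle, 741 ± 18.3 with LPS and 504 ± 4.76 with LPS+CCM. Phf11d stood at 7.75 ± 1.06, 313 ± 7.33 and 226 ± 2.30 CPM in the same groups.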

How the data were processed

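Poly(A) RNA of 36 BMDM libraries was sequenced by the authors. Per the labels, reads were processed with fastp, HISAT2 2.0.5 and featureCounts 1.5.0-p3 on the build mm10, and the deposited values are raw counts per gene, all 36 columns of which were used. The authors tested groups with DESeq2. Here only the groups of a comparison entered its fit in edgeR 4.0.16 in R 4.3.3 (filterByExpr, TMM scaling, quasi-likelihood test, no block, Benjamini-Hochberg over all genes tested, called at 0.05, two-sided). Fits were also run on simulated counts with known changes, drawn without pairing of libraries, and the outcomes are not reported here. CPM used TMM factors over 36 libraries, log2 CPM a prior count of 2, and 95% intervals 1.96 SE, slightly narrower than the test. Alternatives were DESeq2 1.42.0, RLE size factors, total counts alone, no filter beyond 1 count, a replicate block, voom with quality weights (limma 3.58.1), a gene length offset, all 36 libraries in 1 fit, and leaving out libraries.

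Same-numbered libraries deviated together (every correlation over 0.1) for LPS in KO (0.298 to 0.83), CCM in unstimulated KO (0.337 to 0.844) and CCM under LPS in WT (0.151 to 0.36). Libraries of a group differed beyond counting noise (chi-square per degree of freedom at least 4.08). The members and gene lists were chosen with earlier results of these data known. All 10 members were named, then up to 2 called genes per list and direction by adjusted p, Ifnb1, Arntl, and the 5 most similar profiles. Some genes of the lists that this rule would name are not reported here.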

Additional observations from a re-analysis of the deposited data

Results flagged for a closer look

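There were 40 sets of 6 KO libraries (10 members in 4 treatments). In 9 of them a library lay at a gap from its nearest neighbour that was large for the range of its group. In KO replicate 6 these were Bst2 with vehicle (258 CPM, the next highest at 109), with CCM (292 CPM, next 93.6) and with LPS (1859 CPM, next 859), Isg15 with CCM (13.6 CPM, next 5.79) and with LPS (3006 CPM, next 1493), and Eif2ak2, which was lowest there with vehicle (14.1 CPM, next lowest 24.3) and with CCM (14.7 CPM, next 22.9). In KO vehicle replicate 2 they were Mx1 (11.7 CPM, next 5.25) and Rsad2 (31.1 CPM, next 13.7).

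The CCM effect on Isg20 in WT cells differed between LPS and no LPS, by -1.09 on the log2 scale in edgeR's interaction term.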

How the results depend on the processing

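Over the alternatives run, LPS kept 10 of 10 members called in both genotypes, and 0 were called in each alternative for CCM in unstimulated WT, the genotype comparisons and interactions, and the LPS by CCM interaction in KO. For CCM under LPS in WT, 9 or 10 were called except in the fit of all 36 libraries (0), with Eif2ak2 called in 8 of 14 alternatives and each other member in 13. For CCM under LPS in KO the number was 6 with DESeq2 (of 180 genes called in all), 7 with voom with quality weights (of 768), 4 with the length offset (of 146), 1 in the fit of all 36 libraries (of 285) and 0 to 5 leaving out a replicate, with 5 without KO replicate 6 and 0 otherwise. A replicate block gave 7 (777 genes in all). Same-numbered libraries there were not all correlated (-0.1 to 0.81), though 4 of 6 were most like their own number. Neither these values nor the labels settle whether the libraries are paired. For CCM in unstimulated KO, 1 was called with DESeq2, the block and the fit of all 36 libraries (of 24, 429 and 14 genes). For the LPS by CCM interaction in WT it was 2 with DESeq2, RLE size factors and the length offset (of 696, 361 and 448 genes), 4 with no filter (of 721), 3 with the block (of 548), 0 with voom (of 447) and with all 36 libraries (of 0), and 1 to 3 leaving out a library (3 without WT CCM replicate 1, 2 without WT CCM replicate 2). The totals in parentheses count genes called in either direction. A share of tested genes called lower is not given for the block under LPS in KO, the fits of all 36 libraries or the interaction alternatives. Member counts there have no matched background. For LPS in KO the block moved all genes called from 6433 to 9774. All genes called moved from 9139 to 5644 for LPS in WT with all 36 libraries, and over the alternatives to 17 to 3220 from 1621 for CCM under LPS in WT, to 0 to 777 from 15 in KO, to 0 to 377 from 8 for CCM in unstimulated WT, to 0 to 429 from 0 in KO, to 0 to 721 from 308 for the WT interaction and to 0 to 100 from 1 in KO. Between the genotypes the members' median log2 fold change moved with the block from 0.36 to 0.04 in vehicle cells and from -0.07 to 0.06 with LPS. Replicate numbers 4 to 6 exist only in KO, so this block in effect compared replicates 1 to 3 of each genotype. A number shared by both genotypes cannot mark 1 animal. The cause of the other moves was not tested.

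Of 1034 single log2 values under alternatives, 31 reversed sign, all of members not called. For CCM in unstimulated WT, Rsad2 gave -0.0021 by total counts, -0.00052 without the filter and -0.017 with the block, and -0.28 to 0.13 leaving out a library. Eif2ak2 gave -0.0066 with voom and -0.057 to 0.17, Cmpk2 -0.41 to 0.050 and Usp18 -0.69 to 0.092 leaving out a library. In unstimulated KO, Bst2 gave -0.029 by total counts, -0.046 with the block, -0.023 with voom, -0.037 with the length offset and -0.11 to 0.094 leaving out a replicate. Under LPS in KO, Bst2 gave -0.20 with voom and -0.10 to 0.090 leaving out a replicate. In the WT interaction, total counts gave 0.0059 for Bst2 and 0.032 for Ifi44, and voom 0.059 for Mx2 and 0.14 for Ifi44. Leaving out a library gave -0.44 to 0.18 for Mx2, -0.14 to 0.28 for Isg15, -0.53 to 0.22 for Mx1, -0.76 to 0.025 for Usp18 and -0.43 to 1.03 for Ifi44, the last without WT CCM replicate 3.

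The median share of the LPS rise present with CCM stayed between 61.1 and 66.7% in WT and between 65.2 and 70.0% in KO. Without LPS the lowest count of a library was 7 for Ifi44, 8 for Mx2, 12 for Mx1, 15 for Isg20 and 16 for Usp18, which limits their precision. It was 32 for Cmpk2, 58 for Isg15 and 59 for Rsad2, but 1291 for Bst2 and 182 for Eif2ak2.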
